A study of Mus musculus with 18 samples.

Results

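The miR-191 and miR-425 cluster is a pair of microRNA (miRNA) hairpins on mouse chromosome 9 that give 4 mature miRNAs, mmu-miR-191-5p, mmu-miR-191-3p, mmu-miR-425-5p and mmu-miR-425-3p. The members were taken by name from the deposited count table, and each had a single row, so they made up 4 of the 2045 miRNA rows and 4 of the 1907 mature miRNAs. A Ψ antibody was used to pull down the small RNA of NIH/3T3 cells, an embryonic mouse fibroblast line, and the RNA before (input) and after (IP) the pull-down was sequenced. Cells were wild type (WT) or carried a knockdown of Pus1, the gene of a Ψ synthase, at 3 days (KD3) or 6 days (KD6), in the same line and medium. Each of the 6 groups had 3 libraries, A, B and C, 18 in all, and no label says whether these came from separate cultures, so that the tests measure the spread between libraries, which may be technical. The labels name neither the knockdown reagent nor a control reagent for the WT cells, and the table holds miRNAs only, so the Pus1 transcript was not analysed here.

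A miRNA hairpin is cut from a longer transcript and then into a short duplex, of which one strand, the guide, is loaded into an Argonaute protein and finds target mRNAs mainly through its seed, the bases near the 5′ end. The other strand is usually discarded, so the 5′ arm (5p) and the 3′ arm (3p) of a hairpin often differ greatly in level. miR-191 and miR-425 are transcribed together and are expressed in many tissues, and miR-191-5p and miR-425-5p are widely used as reference miRNAs in quantitative PCR. Pseudouridine (Ψ) is an isomer of uridine, so only the uridines of a miRNA can carry it.

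The mature sequences, from RefSeq on GRCm38.p6, are shown because no seed is shared among the 4 members and because their uridines, the base from which Ψ is made, differ in position and, except between the arms of miR-425, in number. Each is written 5′ to 3′ with the seed (bases 2 to 8) in capitals.
mmu-miR-191-5p: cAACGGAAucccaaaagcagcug
mmu-miR-191-3p: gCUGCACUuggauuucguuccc
mmu-miR-425-5p: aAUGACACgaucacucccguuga
mmu-miR-425-3p: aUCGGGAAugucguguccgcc

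Counted from the 5′ end, miR-191-5p had 2 uridines, at positions 9 and 22, and thus none in its seed. miR-425-5p had 5 uridines, at positions 3, 11, 15, 20 and 21, and miR-425-3p also had 5, at positions 2, 9, 11, 14 and 16. miR-191-3p had 8, and GC content ranged from 47.8% in miR-425-5p to 61.9% in miR-425-3p. Among RefSeq mouse miRNAs, 1 other shared a seed with a member, miR-489-3p, which has the same bases 2 to 8 as miR-425-5p and was listed at 0 in the 18 libraries.

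The hairpins lie on the + strand at chr9:108568319-108568392 (Mir191, 74 nt) and chr9:108568777-108568861 (Mir425, 85 nt), 384 nt apart. They are shown whole, with the 5p and 3p arms in capitals, since both come from one stretch of one transcript.
Mir191: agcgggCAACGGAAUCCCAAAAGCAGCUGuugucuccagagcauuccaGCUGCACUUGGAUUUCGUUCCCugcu
Mir425: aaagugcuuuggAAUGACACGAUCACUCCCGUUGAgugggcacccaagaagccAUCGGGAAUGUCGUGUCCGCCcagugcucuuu

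In GENCODE M21 both hairpins lie in the long noncoding RNA gene 4833445I07Rik (chr9:108567533-108569174, + strand), inside the single exon of its transcript 4833445I07Rik-201. In RefSeq both fall within the coding gene Dalrd3 (chr9:108567484-108572773), which GENCODE starts further downstream, at 108569886. On the opposite strand GENCODE places the predicted miRNA gene Gm24083 (chr9:108568295-108568414), which covers Mir191. The table had no row for it, and its 4 rows at the locus were the 4 members.

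Depth ranged from 3989031 to 15099781 mapped reads in 17 libraries. The KD6 input A library stood apart with 241109, and it weighs on the KD6 values below. Reads outside miRNA rows made up 5.47% to 5.86% of mapped reads in WT inputs and 14.8% to 18.6% in WT IP libraries. The knockdown libraries all had more, 6.88% to 9.96% in inputs and 23.2% to 38.2% in IP. The cause was not tested. The fibroblast label was checked with 5 markers. Levels are in CPM, the count over library size scaled with edgeR's TMM factors, in the usual CPM unit. The highest median over the inputs was that of miR-21a-5p, at 419070 CPM, and the lowest that of miR-145a-5p, at 1413. Of 8 markers of hepatocytes, neurons, blood and epithelium, the medians were between 0 and 0.768 CPM except for miR-122-5p (33.9 CPM).

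miR-191-5p, the guide strand of its hairpin, was the most abundant member in each of the 18 libraries. In the WT inputs its estimated counts were 8637.6, 10479.4 and 9420 (A, B and C), against 1184, 1451 and 1532.5 for miR-425-5p. miR-425-3p had 127, 178 and 166 counts there, and miR-191-3p had 31.4, 31 and 40.5. Levels were scaled with edgeR's TMM factors, which give each library a scale of its own. The WT input levels were 1044 ± 37.3 CPM for miR-191-5p and 152 ± 15.6 for miR-425-5p (SD, n = 3). Those of miR-425-3p and miR-191-3p were 17.1 ± 1.25 and 3.76 ± 0.733 CPM. The 4 ranges did not overlap in the WT inputs. Since the members are 21 to 23 nt long and a read covers a whole miRNA, these levels were not divided by length. By mean WT input level miR-191-5p ranked 68 and miR-425-5p 141 of the 534 miRNAs that passed the abundance filter, while miR-425-3p ranked 269 and miR-191-3p 380. All 4 members passed the filter.

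**Figure D1:**
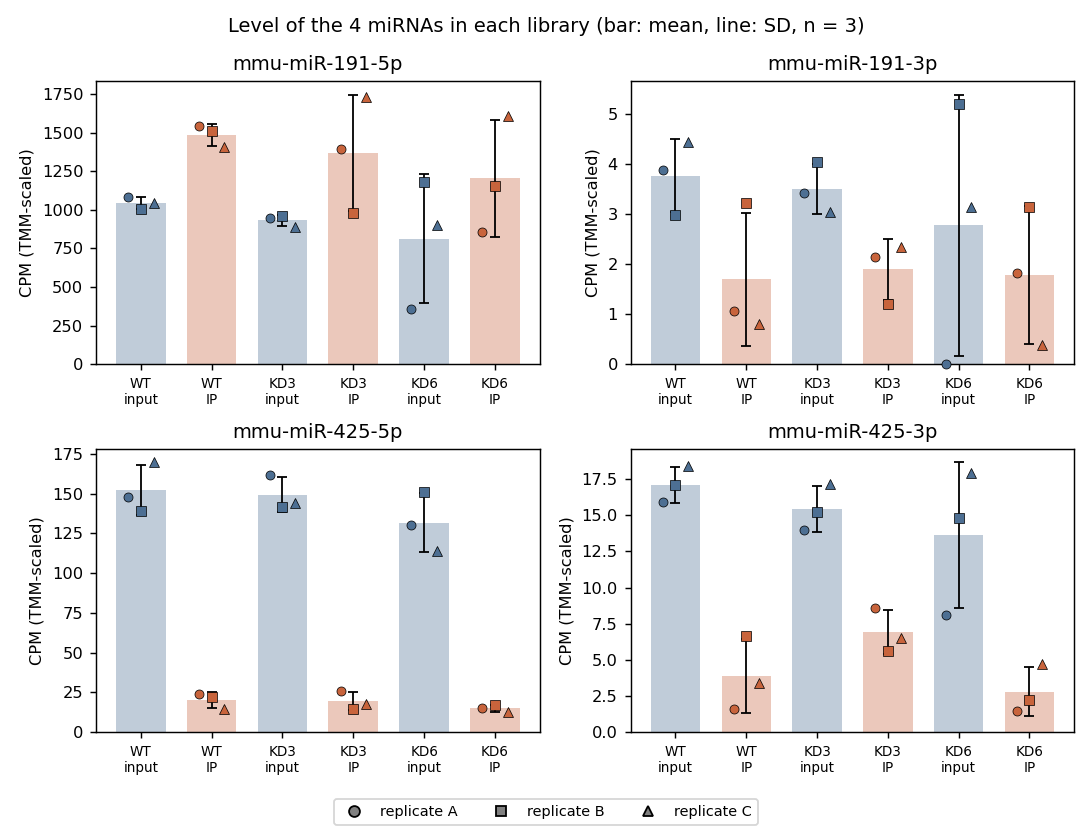
Level of each of the 4 miRNAs (vertical axis, CPM scaled by TMM, linear from 0, 1 panel per miRNA) in the input (blue) and IP (orange) libraries of WT, KD3 and KD6 cells; bars are means, lines are SD (n = 3) and symbols are replicates A, B and C. The IP levels of miR-425-5p, 12.8 to 26.1 CPM, all lie below its input levels, 114 to 170 CPM, while the WT IP levels of miR-191-5p, 1405 to 1541 CPM, lie above its WT inputs.

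miR-425-5p, the guide strand of Mir425, fell in the IP in all 3 conditions. Its counts in the WT IP libraries were 92, 111.3 and 89, and its levels went from 148, 139 and 170 CPM in WT input to 24.2, 22.3 and 14.3 CPM in WT IP. In KD3 they went from 162, 142 and 144 CPM to 26.1, 14.8 and 17.7 CPM. In KD6 they went from 130, 151 and 114 CPM to 15.0, 17.0 and 12.8 CPM. Input and IP libraries did not overlap in any condition, and the highest IP level of the 9 was less than the lowest input level. The log2 ratio of IP to input was −2.92 ± 0.26 (SE) in WT, −2.94 ± 0.26 in KD3 and −3.15 ± 0.27 in KD6, or 7.56-, 7.65- and 8.90-fold lower. The adjusted p-values were 3.91e-09, 4.68e-09 and 2.23e-09 (edgeR quasi-likelihood test, Benjamini-Hochberg over 534 miRNAs, threshold 0.05). The fall of miR-425-5p passed the threshold in each of 57 alternative fits, with log2 ratios between −3.98 and −2.11, the smallest in size being that of WT without WT input C. Such a call was common: 66.7% of tested miRNAs were called in WT, 67% in KD3 and 68.7% in KD6. So was the separation of input and IP, found for 73.4% of tested miRNAs in WT, 74% in KD3 and 58.6% in KD6. In WT, 18.2% of tested miRNAs had a lower ratio than miR-425-5p.

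miR-425-3p, the opposite arm of the same hairpin, was also lower in the IP, with few reads. It had 6, 33 and 21 counts in the WT IP libraries, 24, 14 and 39 in KD3 and 4, 5 and 25 in KD6. Levels fell from 15.9, 17.1 and 18.4 CPM in WT input to 1.58, 6.64 and 3.37 CPM in WT IP, a log2 ratio of −2.12 ± 0.39 (SE, adjusted p = 7.44e-05, edgeR). In KD6 the ratio was −2.33 ± 0.44 (adjusted p = 8.61e-05, edgeR). In KD3, where the input levels of 14.0, 15.2 and 17.1 CPM dropped to 8.58, 5.61 and 6.51 CPM, it was −1.16 ± 0.38 (adjusted p = 0.0112, edgeR). Input and IP libraries were apart in each condition, as they were for 73.4% of tested miRNAs in WT, 74% in KD3 and 58.6% in KD6. In KD6 the lowest input level, 8.13 CPM, was that of KD6 input A and rests on 2 counts. The highest KD6 IP level was 4.72 CPM, so this separation is not secure. The size of the ratio changed with single libraries left out, and it was called in each of these fits. The WT ratio was −1.34 without WT input C and −2.76 without WT IP B. The KD6 ratio was −1.60 without KD6 input C and −3.37 without KD6 IP C. The median of all miRNAs, −0.35 in WT and −0.28 in KD6 as reported here, moved too. It was 0.52 without WT input C and 0.36 without KD6 input C. Relative to the median of its own fit, miR-425-3p was at −1.86 and −2.43 in WT and at −1.96 and −2.73 in KD6. The KD3 call was lost with upper-quartile factors (−0.49, adjusted p = 0.232), with the shallow KD6 input A as TMM reference (−0.70, adjusted p = 0.109), without KD3 input A (−0.70, adjusted p = 0.182) and without KD3 input C (−0.56, adjusted p = 0.274). The median of all miRNAs was above 0 in each of these fits. Relative to it the KD3 ratio was −0.90, −0.88, −1.04 and −0.97.

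miR-191-5p went the other way on the CPM scale, but its difference from input did not pass the test. Its levels were 1081, 1006 and 1043 CPM in WT input and 1541, 1508 and 1405 CPM in WT IP, so the groups were apart in WT. They were also apart in KD3, with 944, 959 and 889.9 CPM in input and 1395, 978 and 1732 CPM in IP. In KD6 they overlapped, with 358, 1177 and 901 CPM in input and 853, 1155 and 1605 CPM in IP. The lowest of these, 358 CPM, belongs to KD6 input A and rests on 88 counts. Such a separation was common: 73.4% of tested miRNAs were apart in WT and 74% in KD3. The log2 ratios of miR-191-5p were 0.51 (95% interval −0.11 to 1.13) in WT, 0.56 (−0.07 to 1.18) in KD3 and 0.55 (−0.08 to 1.17) in KD6. The adjusted p-values were 0.138, 0.104 and 0.111 (edgeR).

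Whether miR-191-5p is called depended on the scaling between libraries. The median log2 ratio of all 534 miRNAs was −0.35 in WT, −0.25 in KD3 and −0.28 in KD6, and it was near 0 with RLE factors (−0.02 in WT) and above it with upper-quartile factors (0.38 in WT). Under the latter scalings miR-191-5p had WT ratios of 0.84 and 1.24 and passed the threshold (adjusted p = 0.00326 and 3.18e-05, edgeR), and DESeq2 gave 0.84 (adjusted p = 0.00145). The calls of all miRNAs moved too: 140 rose and 216 fell in WT, while 46.6% of calls were rises with RLE factors and 57.7% with upper-quartile factors. Leaving out 1 library also brought calls, in fits where the median of all miRNAs moved up as well. The ratio of miR-191-5p was 1.23 in WT without WT input C. It was 1.11 and 1.06 in KD3 without KD3 input A or C, and 1.31 and 1.08 in KD6 without KD6 input B or C. The medians of these fits, in the same order, were 0.52, 0.34, 0.40, 0.36 and 0.36. Relative to them miR-191-5p was at 0.71, 0.77, 0.65, 0.95 and 0.71. The KD6 ratio was not called without the shallow KD6 input A, at 0.046 (adjusted p = 0.888, edgeR), or without KD6 IP C, at −0.039. With each of the 18 libraries in turn as the TMM reference, its WT ratio ran from 0.51 to 1.20 and was called with 9 of the 18, against 2 of the 18 in KD3 (0.33 to 1.02) and 2 of the 18 in KD6 (0.33 to 1.05). It was called in 28 of 57 alternative fits over the 3 conditions and not in the other 29. Relative to the median of all tested miRNAs, the ratio of miR-191-5p was positive in each of the 57, at 0.19 to 0.96, and it was 0.86 in WT as reported here. Subtracting the median removes most of a change in scaling, and the fits reuse the same 18 libraries. Their agreement is thus no separate evidence of a rise. In WT, 65.5% of tested miRNAs had a lower ratio.

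miR-191-3p, the scarce strand of Mir191, had 4, 16 and 5 counts in the WT IP libraries, and at most 43 counts in any library. Its log2 ratios were −1.15 (95% interval −2.31 to 0.02) in WT, −0.83 (−2.03 to 0.37) in KD3 and −1.32 (−2.69 to 0.06) in KD6, and none passed the threshold (adjusted p = 0.0778, 0.207 and 0.0829, edgeR). Input and IP overlapped in WT and KD6. KD6 input A had 0 counts of it, which allows up to 3 counts, or 12.4 CPM of mapped reads (counting error only). This limit is above its level in the other 8 inputs, at most 5.18 CPM, so that library says nothing of its level. The ratio passed the threshold in KD6 without that library (−1.60, adjusted p = 0.0359, edgeR) and without KD6 IP B (−2.18, adjusted p = 0.0137), and in WT without WT IP B (−2.05, adjusted p = 0.00913).

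**Figure D2:**
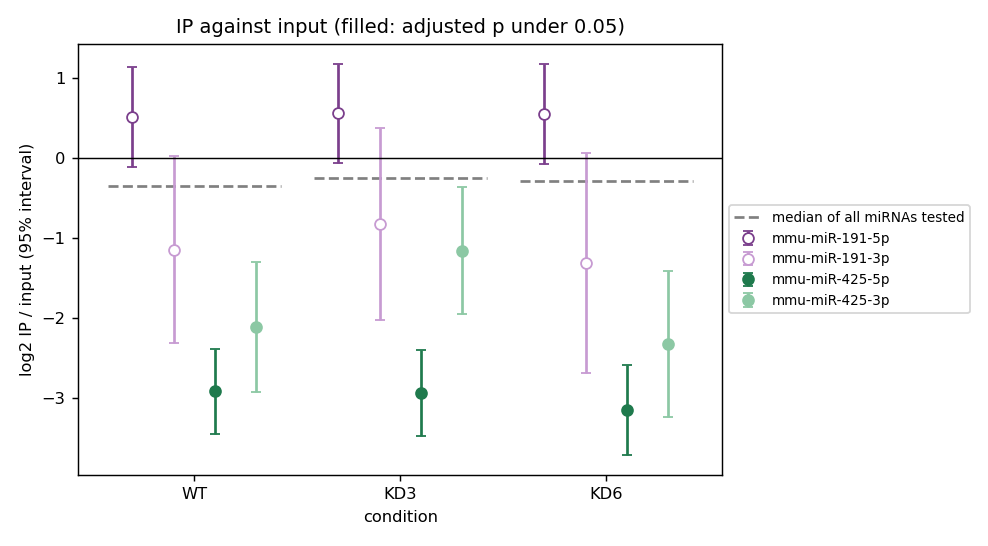
Log2 ratio of IP to input (vertical axis) of the 4 miRNAs in WT, KD3 and KD6 (horizontal axis); points are edgeR estimates, lines are 95% intervals, filled points have an adjusted p under 0.05 and dashed lines mark the median of the 534 tested miRNAs. miR-425-5p lies near −3 in each condition, miR-191-5p just above 0 with intervals that reach below it.

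**Figure D3:**
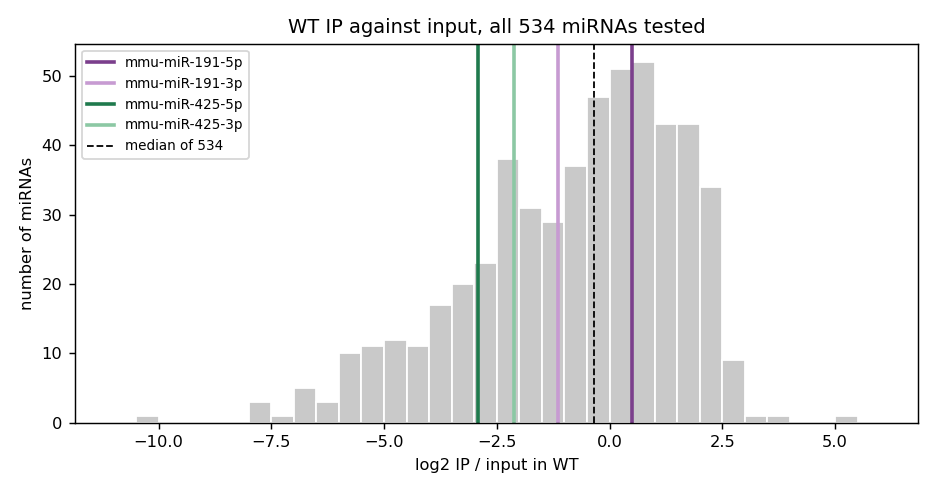
Histogram of the log2 ratio of IP to input in WT for the 534 tested miRNAs (bars, number of miRNAs in each bin), with solid lines at the 4 cluster members and a dashed line at the median, −0.35. miR-191-5p lies to the right of the median and the other 3 members to the left.

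A ratio of 2 miRNAs within 1 library needs no scaling between libraries, so the difference between the hairpins was measured in that way too. In the WT inputs miR-191-5p had 7.29, 7.22 and 6.15 counts for each count of miR-425-5p, and in the WT IP libraries 63.3, 67.3 and 97.9. In KD3 the ratio was 5.83, 6.77 and 6.16 in input and 53.1, 65.1 and 97.4 in IP. In KD6 it was 2.72, 7.79 and 7.91 in input and 56.2, 67.0 and 124 in IP. The lowest IP value was thus above the highest input value over all 18 libraries. The IP raised the ratio 10.9-fold in WT, 11.1-fold in KD3 and 14.1-fold in KD6, a mean difference of 3.58 on the log2 scale (two-sided exact permutation test within conditions, p = 0.00025, the smallest that 8000 arrangements can give, 0.000375 after adjustment over 3 ratios). Within 1 condition 3 libraries against 3 cannot go below p = 0.1 in this exact test, which each condition reached. Without KD6 input A the mean difference was 3.41. For the 3 ratios, how often other pairs of miRNAs part as fully was not counted. Of single miRNAs, 66.7% were called in WT.

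**Figure D4:**
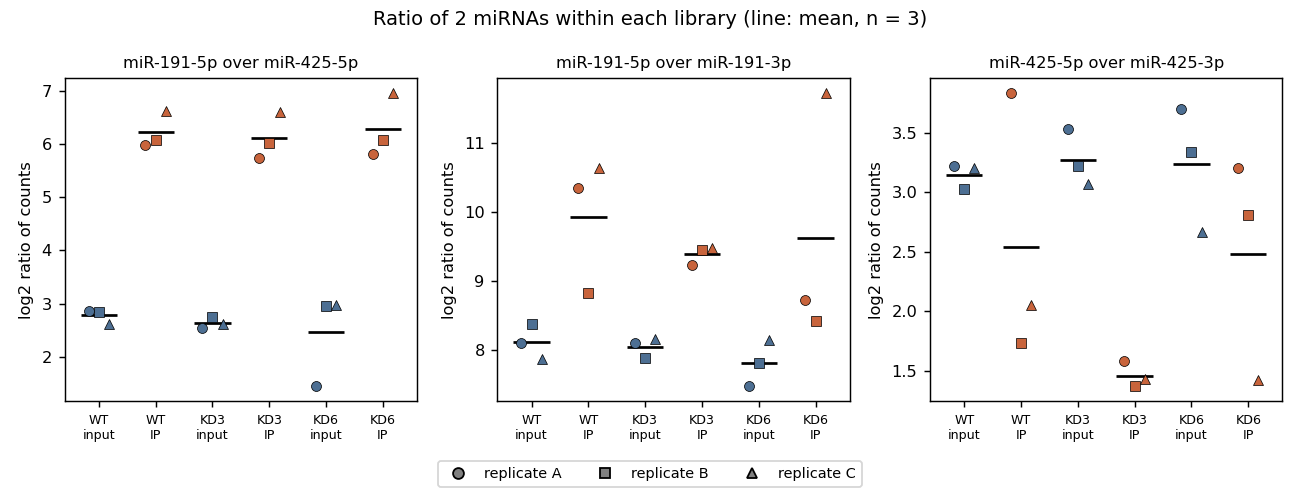
Log2 ratio of the counts of 2 miRNAs within each library (vertical axis, 1 panel per ratio) for input (blue) and IP (orange) libraries of WT, KD3 and KD6; symbols are replicates and lines are means (n = 3). The ratio of miR-191-5p to miR-425-5p runs from 1.45 to 2.98 in inputs and from 5.73 to 6.96 in IP libraries.

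The 2 arms of each hairpin were compared in the same way. For Mir191, the ratio of the 5p to the 3p arm ran from 223 to 333 in 8 inputs and from 344 to 3401 in the 9 IP libraries, with no overlap. The IP values rest on 2 to 16 counts of the 3p arm. The 3401 of KD6 IP C rests on 2 counts and moves with the 0.5 added, and the 344 of KD6 IP B rests on 7. KD6 input A had 88 counts of the 5p arm over 0 of the 3p arm, so its ratio has no upper bound and the 0.5 added to each count sets its value. Without that library the mean difference was 1.61 on the log2 scale (exact permutation test, adjusted p = 0.0015), and with it 1.66 (adjusted p = 0.000375). For Mir425 the 5p to 3p ratio went down, from a range of 6.33 to 13.0 in inputs to 2.59 to 14.2 in IP, a mean difference of −1.06 (exact permutation test, p = 0.00775, adjusted 0.00775). Without KD6 input A, which had 32 and 2 counts of the arms, it was −0.98 (adjusted p = 0.0128). Here the groups were apart in KD3, where the 3 inputs had 8.38 to 11.5 and the 3 IP libraries 2.59 to 3.00. They overlapped in WT, where IP A had 14.2 against 3.33 and 4.16 in B and C, and in KD6. In shares, the 5p arm held 86.4% to 94.1% of Mir425 reads in inputs and 72.5% to 93.9% in IP libraries, the share of WT IP A resting on 98 reads (95% exact binomial interval 87.1% to 97.7%). For Mir191 it held 99.6% to 100% in inputs, the 100% being KD6 input A with 88 reads (95.9% to 100%), and 99.7% to 99.98% in IP libraries.

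No member's IP ratio differed between Pus1 knockdown and WT by the test. For miR-425-5p the ratio differed from WT by −0.02 (95% interval −0.74 to 0.70) in KD3 and by −0.24 (−0.97 to 0.50) in KD6, and for miR-191-5p by 0.05 (−0.83 to 0.92) and 0.04 (−0.84 to 0.92). The intervals thus allow changes of up to about 1 log2 unit in either direction. miR-425-3p differed by 0.96 (−0.17 to 2.09) in KD3 and −0.21 (−1.43 to 1.01) in KD6, and by −1.17 (−2.39 to 0.05) between KD6 and KD3. miR-191-3p differed by 0.32 (−1.36 to 2.0) in KD3 and −0.17 (−1.98 to 1.64) in KD6. The lowest adjusted p of the 12 tests was 0.291 (edgeR), for miR-425-3p between KD6 and KD3. Over all miRNAs, 0% were called for KD3 against WT, 1.12% for KD6 against WT and 0.187% for KD6 against KD3. The 0 calls for KD3 against WT compare with 15 miRNAs at an unadjusted p under 0.05 and with 0 calls by DESeq2. For KD6, DESeq2 called more: 38 miRNAs against WT, where edgeR called 6, and 33 against KD3, where edgeR called 1. No member was among them.

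No difference in the input level of a member passed the test either. miR-191-5p went from 1044 ± 37.3 CPM in WT to 931 ± 36.4 in KD3 (SD, n = 3), a log2 difference of −0.16 (95% interval −0.78 to 0.45). The 3 KD3 inputs of miR-191-5p lay below the 3 WT inputs, as 37.6% of tested miRNAs were apart in that comparison. In KD6 its level was 812 ± 417 CPM, or −0.34 (−0.96 to 0.28), and without KD6 input A the difference was 0.13 (adjusted p = 0.855, edgeR). miR-425-5p had 149 ± 11 CPM in KD3 and 132 ± 18.6 in KD6, differences of −0.03 (−0.51 to 0.45) and −0.21 (−0.71 to 0.29), and its groups overlapped throughout. Without KD6 input A, the KD6 difference of miR-425-5p was −0.06. miR-425-3p differed from WT by −0.15 (−0.87 to 0.57) in KD3 and −0.14 (−0.92 to 0.63) in KD6, and miR-191-3p by −0.10 (−1.13 to 0.94) and 0.03 (−1.10 to 1.16). Adjusted p-values of the 4 members were between 0.568 and 0.992 in the 3 input comparisons (edgeR). Over all miRNAs, 0% were called between KD3 and WT inputs (46 miRNAs passed 0.05 unadjusted and DESeq2 called 13), 5.06% for KD6 against WT and 5.99% for KD6 against KD3.

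Because these miRNAs serve as references, their spread over the 9 inputs was set beside that of others. The coefficient of variation of miR-425-5p was 11.4%, and 96.1% of the other miRNAs among 156 with at least 100 CPM varied more. That of miR-191-5p was 25.1%, near the median of 25%, and 9.75% without KD6 input A, when 87.1% varied more. miR-425-5p kept 11.4% without that library, when 80% varied more. These values moved with library size alone in place of TMM. The coefficient of miR-191-5p was then 25.2% over 9 inputs, when 38.1% varied more, and 14.3% without KD6 input A, when 65.8% did. That of miR-425-5p was 6.63% and 6.88%, when 99.4% and 96.8% varied more. Of 6 other common reference miRNAs, the coefficient over 9 inputs with TMM factors was lowest for miR-30e-5p (20.4%) and highest for miR-16-5p (48.6%). Without KD6 input A it was 7.88% for miR-30e-5p, lower than for both guide strands with TMM factors, 12.1% for miR-103-3p and 24.5% to 41.3% for the other 4. In these inputs miR-423-3p and miR-423-5p were lower in KD6 than in WT (−1.21 ± 0.21 and −1.19 ± 0.21, adjusted p = 0.00177 for both, edgeR), and the other 4 were not called. In the IP the 6 were spread widely: 1 rose and 3 fell in WT, 3 rose and 3 fell in KD3, and 2 rose and 3 fell in KD6, with a median of −1.01 in WT beside −0.35 over all miRNAs. Calls were common over all tested miRNAs too, at 66.7% in WT, 67% in KD3 and 68.7% in KD6. In WT, miR-423-5p rose by 1.55 ± 0.21 and miR-30e-5p fell by 5.54 on the log2 scale (adjusted p = 2.19e-06 and 1.73e-12, edgeR), so the references did not keep a common ratio.

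The gap between the guide strands of Mir191 and Mir425, 3.43 log2 units in WT, was set beside that of other neighbours. RefSeq hairpins on the same strand with starts within 10 kb, and with a tested arm each, made 315 pairs of 116 hairpins, many of them in the same clusters. A miRNA made by several hairpins has 1 ratio, which stood for each of them. The median gap between the more abundant tested arms was 2.52 and the largest 9.35. A larger gap than that of Mir191 and Mir425 was found in 114 pairs, or 36.3% of the others, and in 22 of the 86 pairs within 1 kb, or 25.9% of the others.

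**Figure D5:**
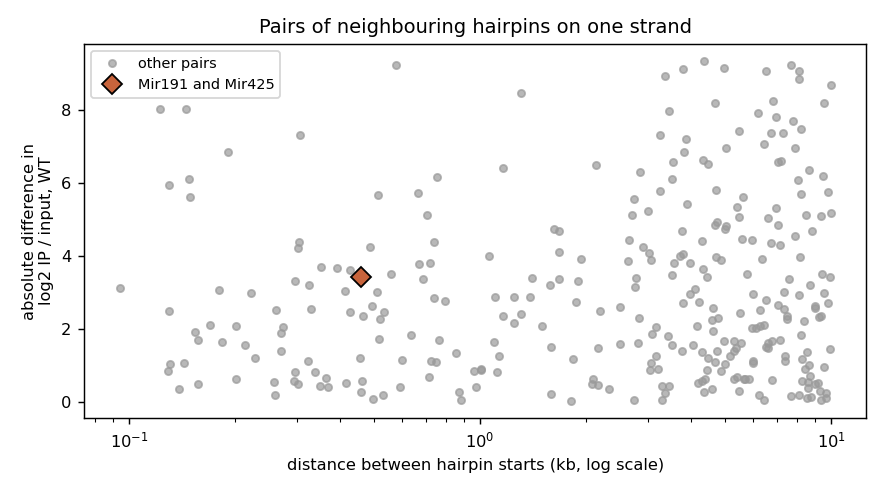
Absolute difference in the WT log2 ratio of IP to input (vertical axis) between the more abundant arms of 2 hairpins on 1 strand, against the distance between their starts (horizontal axis, kb, log scale), for 315 pairs. The pair Mir191 and Mir425 (diamond), at 3.43, lies above the median of 2.52 and below the largest of 9.35.

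Uridine number did not order the members. miR-425-5p and miR-425-3p have 5 uridines each and miR-191-3p has 8, and all 3 had a lower WT ratio than miR-191-5p with 2. Among the other tested miRNAs with a RefSeq sequence, the 17 with 2 uridines had a median WT log2 ratio of −0.37 (quartiles −1.05 and 1.60), and 10 of them lay below miR-191-5p. The 77 others with 5 uridines had a median of −0.91 (quartiles −3.43 and 0.16), and 55 of them lay above miR-425-5p. As a description, the correlation of WT ratio with uridine number across 462 miRNAs was r = 0.08, and with GC content 0.19. The points share the same 6 libraries and miRNAs of one family share sequence.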

How the data were processed

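The authors trimmed the 3′ adapter and quantified reads with the SeqImp pipeline (version not given in the sources used here) on mm10, with Ensembl 89 and miRBase 21. The deposited values are estimated counts for each mature miRNA and hairpin, not normalized, in which a read that matches several places is divided among them, and 47.0% of the values above 0 were not whole. Further deposited columns hold estimated counts of distinct sequences. The study's methods use DESeq2.

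The members, lists and comparisons were chosen with earlier results of these data known. Estimated counts were rounded, and each miRNA was represented by its largest row (members have 1 row each). A row of library totals was left out. The tests used edgeR 4.0.16 under R 4.3.3 (filterByExpr, TMM with edgeR's own choice of reference, WT IP A, glmQLFit, glmQLFTest), in 1 model of 6 group means over 18 libraries with no block, which tested 534 miRNAs. SE was taken as |log2 ratio| over the root of F. CPM uses TMM effective library sizes. Within-library ratios have 0.5 added to each count. RefSeq hairpins were matched to the table by position and number. Named miRNAs are the 4 members, miRNAs with a member's seed, 6 reference miRNAs (miR-16-5p, miR-93-5p, miR-103-3p, miR-423-3p, miR-423-5p and miR-30e-5p) and the 3 most correlated with each member among those with at least 100 CPM. The marker lists were miR-21a-5p, miR-199a-3p, miR-214-3p, miR-143-3p and miR-145a-5p for fibroblasts, and miR-122-5p, miR-124-3p, miR-142a-3p, miR-142a-5p, miR-223-3p, miR-451a, miR-200c-3p and miR-141-3p for other cells.

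Whether letters pair the libraries was checked from deviations from group means over 197 miRNAs with a mean log2 CPM above 5. All 3 letters correlated by over 0.1 between the KD3 and WT inputs (0.22 to 0.59) and between the KD6 and KD3 inputs (0.24 to 0.32), a pairing that rests on values and on no label. In each other comparison at least 1 letter did not. The procedure was tested on simulated data, which for the ratio test were normal values and not counts. Alternatives were RLE, upper-quartile and no factors, total mapped reads as library size, no filter, a mean of at least 10 counts, summed rows, DESeq2 1.42.0, replicate blocks, only the libraries compared and each library left out. Added after the data were seen were each library as TMM reference, the block within the libraries compared, the input spread without KD6 input A and hairpin pairs with both arms at 10 CPM or more.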

Additional observations from a re-analysis of the deposited data

How the results depend on the processing

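The fall of miR-425-5p, and that of miR-425-3p in WT and KD6, passed the threshold under each alternative, miR-191-3p in KD3 under none, while the calls of miR-191-5p in each condition, of miR-425-3p in KD3 and of miR-191-3p in WT and KD6 changed with the scaling, the filter, the libraries fitted or 1 library. miR-191-5p was called with RLE factors (0.84 in WT, 0.82 in KD3, 0.84 in KD6), upper-quartile factors (1.24, 1.22 and 1.23), DESeq2 (0.84, 0.82 and 0.84), KD6 input A as TMM reference (1.20, 1.02 and 1.05), and only the libraries compared (0.61, 0.51 and 1.08). It was also called in WT and KD3 with library size alone (0.77 and 0.76) and a mean of at least 10 counts (0.72 and 0.63). With total mapped reads as library size its KD6 ratio turned to −0.25, and without KD6 IP C to −0.039, neither called. miR-425-3p lost its KD3 call with upper-quartile factors (−0.49) and KD6 input A as TMM reference (−0.70). miR-191-3p was called in KD6 with library size alone (−1.72), no filter (−1.71) and total mapped reads (−2.12). With single libraries left out, miR-191-5p ran from 0.45 to 1.23 in WT, 0.15 to 1.11 in KD3 and −0.039 to 1.31 in KD6, miR-425-3p from −2.76 to −1.34 in WT, −1.52 to −0.56 in KD3 and −3.37 to −1.60 in KD6, and miR-191-3p from −2.05 to −0.28 in WT and −2.18 to −0.33 in KD6. With 1 library left out the median of all tested miRNAs moved too, in WT between −0.38 (WT IP A) and 0.52 (WT input C). The cause of these shifts was not tested beyond the reference choice.

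With the IP and input pair as the replicate block, miR-191-5p was called in KD6 (0.67). Within the libraries compared it was called with the letter as block (0.61 in WT, 0.45 in KD3 and 1.10 in KD6) as it was without. The block changed no other member's call. The 3 within-library ratios stayed past the threshold in each alternative, the sign flips of same-letter pairs as a replicate block (exact, adjusted p = 0.00586, 0.00586 and 0.0156) included. In the 285 alternative fits of a change in enrichment and 213 of input levels, no member was called, and the sign changed in 58 and 72. With library size alone the WT input level was 958 CPM for miR-191-5p and 15.7 for miR-425-3p. The pair of hairpins was exceeded by 25.9% of other pairs within 1 kb and 23.9% where both arms had at least 10 CPM. Counts of calls over all miRNAs moved by over 1.5 times from 6 to between 0 and 51 for the KD6 against WT change in enrichment, from 1 to between 0 and 48 for KD6 against KD3, from 0 to up to 1 for KD3 against WT, and, for inputs, from 0 to up to 86 for KD3 against WT, from 27 to between 0 and 30 for KD6 against WT and from 32 to between 2 and 48 for KD6 against KD3. With the letter as replicate block the KD3 against WT inputs had 0 calls, and 86 within the libraries compared, and the KD6 against KD3 inputs had 29 and 8. Depth limits both 3p arms, with at most 39 counts of miR-425-3p and 16 of miR-191-3p in an IP library, and KD6 input A.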

Other observations

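The miRNAs whose log2 CPM over the 18 libraries was most like that of miR-425-5p, among 150 others with at least 100 CPM, were miR-24-2-5p, miR-30a-5p and miR-210-3p (Pearson r = 0.99 for each). For miR-191-5p they were miR-351-5p and miR-20a-5p (both 0.85) and miR-30a-3p (0.82). miR-425-3p was most like miR-322-5p and miR-322-3p (both 0.93) and miR-181a-5p (0.92), and miR-191-3p was most like miR-450a-5p (0.81), miR-503-5p (0.73) and miR-484 (0.71). Between members, r was 0.84 for miR-425-5p and miR-425-3p, 0.30 for miR-191-5p and miR-191-3p, and −0.52 for miR-191-5p and miR-425-5p. The correlations are descriptions over 9 input and 9 IP libraries. miR-30a gave its 5p arm to one list and its 3p arm to the other.

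Reads per distinct read sequence separated the guide strands as well. For miR-425-5p the median was 14.9 in the inputs and 5.86 in the IP libraries, while for miR-191-5p it was 35.3 and 32.6. Since the number of reads itself fell for miR-425-5p, from a median of 1184 to 73 counts, this ratio is not independent of its level.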
